A study of Mus musculus with 2 samples.

Results

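The transforming growth factor-β (TGF-β) and bone morphogenetic protein (BMP) superfamily was examined in primary chondrocytes of control mice and of *Myl3*-KO mice. Members were chosen by gene symbol alone: ligands (*Tgfb*, *Inh*, *Bmp*, *Gdf*), receptors (*Tgfbr*, *Acvr*, *Bmpr*), *Smad* genes, latent TGF-β binding proteins (*Ltbp*) and secreted antagonists (*Nog*, *Chrd*, *Grem*, *Fst* and *Fstl*). The rule found 61 of the 22156 genes in the table. No measured value entered the rule, but it was chosen with earlier results of these data known.

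Messenger RNA was sequenced from chondrocytes released from cartilage, by the labels from the ribs, of newborn mice on a C57BL/6J background and grown as a monolayer in serum without further treatment. The control library came from mice that the labels call WT and that the methods of the study describe as *Myl3* flox/flox littermates. The *Myl3*-KO library came from *Col2a1*-Cre; *Myl3* flox/flox mice, in which Cre is driven by the *Col2a1* promoter, so that recombination is restricted to cells that use this promoter or descend from such cells. There was 1 library per genotype and therefore no replicate check. The question was which components of the pathway differed between these libraries.

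Superfamily ligands are secreted dimers. TGF-β is held in the matrix as a latent complex with an LTBP, whereas many BMPs are kept in check by antagonists such as noggin and gremlin. A bound ligand brings type I and type II receptors together, and the type I receptor phosphorylates a receptor Smad, SMAD2 or SMAD3 for TGF-β and activins and SMAD1, SMAD5 or SMAD9 for BMPs, which enters the nucleus with SMAD4. In cartilage, BMPs are known for driving chondrocyte differentiation, and TGF-β for restraining hypertrophy.

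The control library held 17612435 expected counts and the *Myl3*-KO library 13477977. Differences are given as a log2 ratio (*Myl3*-KO divided by control) after scaling to these totals, with a 95% Clopper-Pearson interval that covers counting error only. *Myl3* itself had 0 counts in both libraries, so the targeted gene did not check the labels. Few markers of the labelled cell type were detected. Of 11 chondrocyte markers in the table, 3 had at least 10 counts, *Col2a1* with 30 and 27 counts, *Sox9* with 866 and 480 and *Col11a2* with 293 and 395, whereas *Acan*, *Matn1*, *Matn3* and *Hapln1* were at 0 in both. Fibroblast markers were abundant and mixed, with 7 of 8 tested, 3 higher and 3 lower (42.9% each, beside 18.6% and 16.8% of all genes). They had a median of 20123 counts over both libraries, beside 1053 for all genes tested, and deeper counts are called at smaller ratios. Their summed level went from 3091 to 3449 FPKM and was carried by *Col1a2* at 2253 and 2630 FPKM, whereas *Dcn* fell from 631 to 155 counts and *Lum* from 272 to 81, and *Thy1* was at 0 in both libraries. Muscle markers were at 0 in both libraries for 6 of 10, and 1, *Cdh15*, rose from 73 to 290 counts. The part of cell composition in the results was not tested, and in bulk RNA fewer cells of a type and less RNA per cell cannot be told apart.

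Of the 61 members, 37 had at least 10 counts over both libraries and were tested by a two-sided exact binomial test with Benjamini-Hochberg adjustment over all 12431 genes tested. The other 24 had at most 4 counts in all, and 15 of these were at 0 in both libraries. Against the library totals, 9 members were higher in *Myl3*-KO, 3 were lower and 25 did not pass. Higher were *Ltbp1*, *Ltbp2*, *Ltbp3*, *Ltbp4*, *Tgfb1*, *Bmp1*, *Fstl1*, *Smad3* and *Tgfbr1*, and lower were *Tgfb2*, *Grem1* and *Bmpr1a*. The 9 made up 24.3% of the members tested, beside 18.6% of all genes called higher, and the 3 made up 8.11%, beside 16.8% called lower and 35.4% called in either direction. The median log2 ratio was 0.10 for the members and 0.02 for all genes tested, with 24 members above 0 and 13 below. *Ltbp2* and *Chrd* exceeded 2-fold upwards, a size reached by 2.16% of all genes, and 0 members exceeded 2-fold downwards, beside 1.19%. The test compares the reads of these libraries and not the genotypes.

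**Figure D1:**
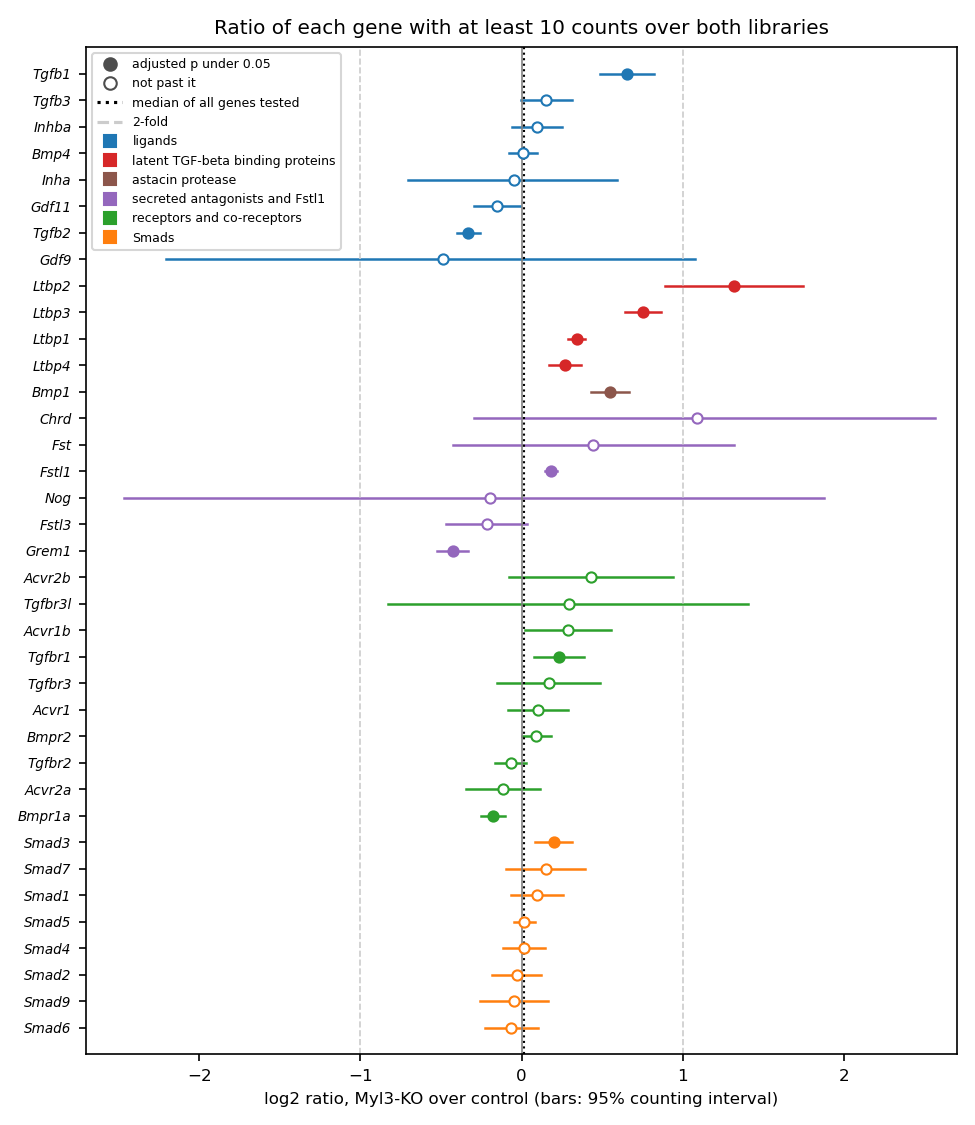
Log2 ratio (*Myl3*-KO divided by control) for the 37 members with at least 10 counts over both libraries (points) with 95% counting intervals (bars), ordered within each role. Filled points mark an adjusted p under 0.05, the dotted line is the median of all genes tested (0.02) and dashed lines mark 2-fold. The 4 *Ltbp* genes lie above 0, and the intervals of *Chrd*, *Nog* and *Gdf9* are wide because their counts were low.

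Sequences before the transcription start are shown for *Tgfb1* and *Tgfb2*, the ligands that moved in opposite directions, for *Ltbp2*, the member with the highest ratio, and for *Grem1*, the antagonist that was lower. Each is the 250 bases upstream of the RefSeq start on GRCm38.p6, read 5′ to 3′ on the strand of the gene. *Tgfb1* is at chr7:25686752-25687001 (+ strand), *Tgfb2* at chr1:186705990-186706239 (- strand), *Ltbp2* at chr12:84876492-84876741 (- strand) and *Grem1* at chr2:113758649-113758898 (- strand). Capitals mark matches on either strand to the GC box GGGCGG, the Smad box CAGAC and the GC-rich Smad site GGCGCC, which can overlap each other but do not in these windows.
Tgfb1: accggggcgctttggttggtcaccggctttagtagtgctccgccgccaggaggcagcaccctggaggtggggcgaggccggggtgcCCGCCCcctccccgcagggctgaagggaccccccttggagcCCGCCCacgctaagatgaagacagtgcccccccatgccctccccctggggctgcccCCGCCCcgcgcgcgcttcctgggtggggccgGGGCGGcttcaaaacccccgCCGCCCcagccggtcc
Tgfb2: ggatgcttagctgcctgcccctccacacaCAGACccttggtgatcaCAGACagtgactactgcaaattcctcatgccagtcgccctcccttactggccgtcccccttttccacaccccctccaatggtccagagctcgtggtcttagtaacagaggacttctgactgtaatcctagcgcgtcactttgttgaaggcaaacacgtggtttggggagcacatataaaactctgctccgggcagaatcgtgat
Ltbp2: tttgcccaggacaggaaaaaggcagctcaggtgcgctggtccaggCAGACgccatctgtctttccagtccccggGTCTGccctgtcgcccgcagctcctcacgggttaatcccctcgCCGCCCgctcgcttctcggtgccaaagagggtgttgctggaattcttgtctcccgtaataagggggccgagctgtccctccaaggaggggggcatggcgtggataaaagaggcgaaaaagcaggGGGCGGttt
Grem1: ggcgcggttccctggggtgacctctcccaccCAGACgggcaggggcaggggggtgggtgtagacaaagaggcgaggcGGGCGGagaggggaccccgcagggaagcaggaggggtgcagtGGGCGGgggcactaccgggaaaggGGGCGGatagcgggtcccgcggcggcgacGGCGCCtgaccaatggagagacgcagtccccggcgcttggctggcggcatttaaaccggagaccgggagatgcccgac
The *Tgfb1* window was 75.2% G or C and held 5 GC boxes and 0 matches to either Smad motif. The *Tgfb2* window was 53.6% G or C, with 0 GC boxes and 2 Smad boxes. *Ltbp2* had 2 GC boxes and 2 Smad boxes, and *Grem1* had 3 GC boxes, 1 Smad box and 1 GC-rich site. The *Tgfb1* and *Tgfb2* windows thus shared none of these motifs. RefSeq windows were found for 44 members, 8 of them with several, which made 55 windows. The GC box occurred in 63.6% of the member windows and in 32.7% of all 32851 windows, the Smad box in 47.3% and 42.2%, and the GC-rich site in 18.2% and 9.59%. The member windows had a median of 63.6% G or C, beside 52.4% for all windows, and its part in these shares was not tested. These are matches of letters and not measured binding.

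Of the 3 TGF-β ligands, 1 was higher and 1 lower (33.3% each, beside 18.6% and 16.8% of all genes), and 1 did not pass. *Tgfb1*, which encodes the best-studied TGF-β isoform, rose from 530 to 638 counts, or from 13.84 to 21.76 FPKM (FPKM corrects for gene length and library size). The log2 ratio was 0.65 (95% interval 0.49 to 0.82, exact binomial adjusted p = 3.40e-13). *Tgfb2*, the ligand with the highest FPKM of the 3, fell from 4282 to 2607 counts, or from 48.90 to 38.12 FPKM. Its log2 ratio was -0.33 (-0.40 to -0.26, exact binomial adjusted p = 7.96e-19). *Tgfb3* had 723 and 615 counts and a log2 ratio of 0.15 (exact binomial adjusted p = 0.129), which did not pass. The summed level of the ligands was 74.9 FPKM in the control and 73.4 FPKM in *Myl3*-KO. Within this sum *Tgfb1* went from 18.5% to 29.7% and *Tgfb2* from 65.3% to 52.0%, with *Tgfb3* at 16.2% and 18.4%. Per length, the order *Tgfb2*, *Tgfb1*, *Tgfb3* was the same in both libraries, with a narrower gap between *Tgfb2* and *Tgfb1* in *Myl3*-KO. *Tgfb3* overlaps *Ttll5* in the annotation, and without the strand of counting their reads cannot be told apart. Several other members, higher ones included, overlap counted genes in the same way.

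Of the 10 BMP ligand genes, *Bmp4* alone was tested. *Bmp4*, a ligand that signals through BMPR1A, had 2424 and 1865 counts, or 72.66 and 73.95 FPKM, the highest level of any ligand. The log2 ratio of 0.01 had an interval of -0.08 to 0.10. *Bmp6* had 0 and 1 counts, and 8 BMP genes were at 0 in both libraries, where a count of 0 allows up to 3 counts, equal to 0.170 CPM for the control library and 0.223 CPM for *Myl3*-KO (CPM divides a count by its library's total). The cultures thus held 1 BMP ligand transcript at a measurable level, and it did not pass the test.

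*Bmp1*, named with the BMPs, encodes an astacin protease that cleaves procollagen, chordin and LTBP1. It rose from 1091 to 1220 counts, or from 16.81 to 24.57 FPKM. The log2 ratio was 0.55 (0.43 to 0.67, exact binomial adjusted p = 4.02e-18).

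Among the growth differentiation factors, *Gdf11*, a ligand that signals through SMAD2 and SMAD3, had 959 and 660 counts, or 13.40 and 12.06 FPKM. Its log2 ratio was -0.15 (-0.30 to -0.01, exact binomial adjusted p = 0.0926) and did not pass. *Gdf9* had 11 and 6 counts. The other 8 *Gdf* genes were not tested, and 5 of them were at 0 in both libraries, while *Gdf5*, a factor of joint formation, had 1 count in each. Of the activin and inhibin subunits, *Inhba*, the subunit of activin A, had 742 and 607 counts and a log2 ratio of 0.10 (-0.06 to 0.25). *Inha* had 50 and 37 counts, *Inhbb* 4 and 0, *Inhbc* 1 and 0, and *Inhbe* 0 in both.

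**Figure D2:**
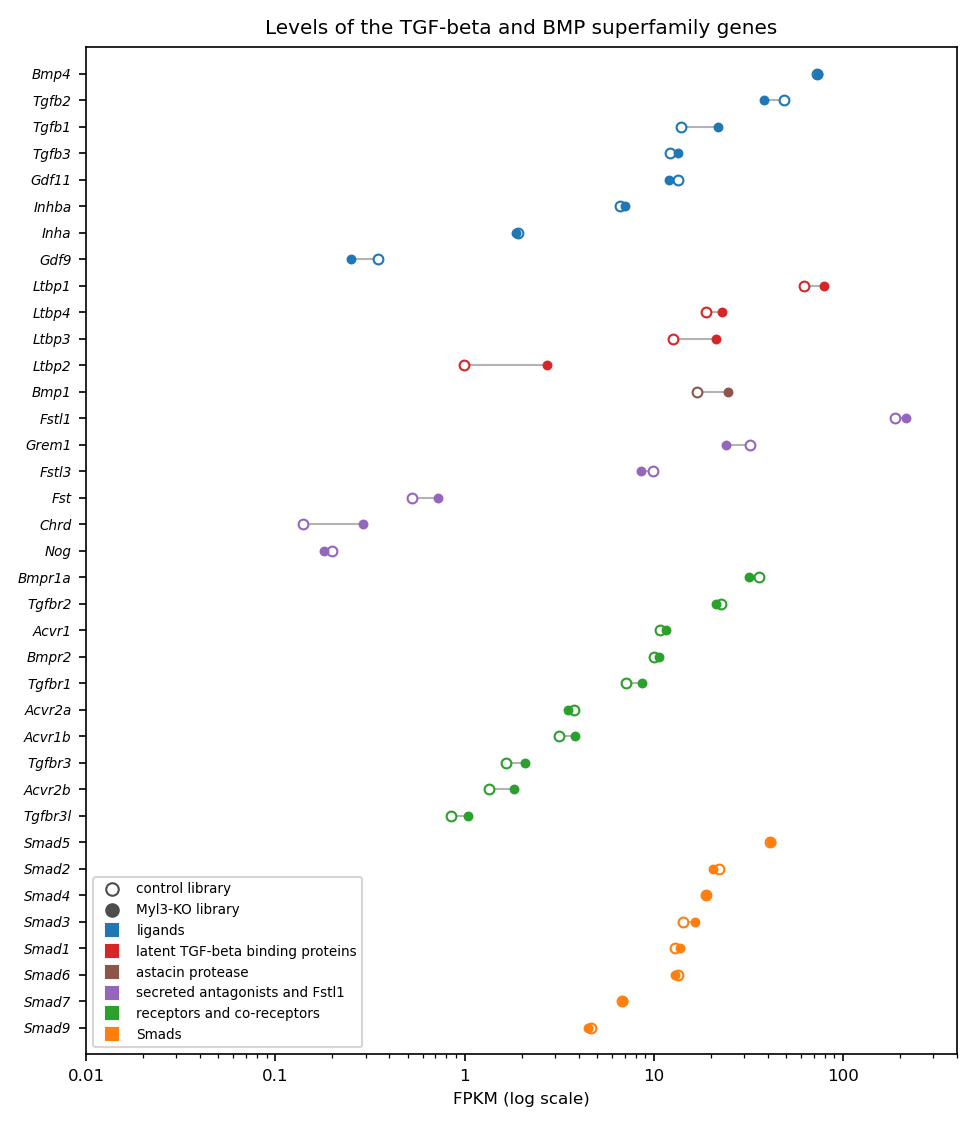
Level in FPKM (log axis) of the 37 members with at least 10 counts over both libraries, in the control library (open) and the *Myl3*-KO library (filled), grouped by role. *Fstl1* is the highest at 189 and 215 FPKM, *Bmp4* the highest ligand, and most receptors and Smads have nearly coincident points.

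The 4 latent TGF-β binding protein genes were all higher in *Myl3*-KO (100%, beside 18.6% of all genes). Of these, *Ltbp4* did not keep this direction when GC content and length were taken into account. These matrix proteins tether the latent TGF-β complex, except that LTBP2 does not bind it. *Ltbp1* had by far the most counts, 5770 and 5600, and went from 62.37 to 79.16 FPKM with a log2 ratio of 0.34 (0.29 to 0.40, exact binomial adjusted p = 1.36e-34). *Ltbp2* rose from 72 to 137 counts, or from 0.99 to 2.72 FPKM. By counts this was the largest ratio of the 37 members tested, 2.49-fold, with a log2 value of 1.31 (0.89 to 1.75, exact binomial adjusted p = 1.95e-09). From FPKM the log2 ratio was 1.46, larger than by counts. *Ltbp3* rose from 1150 to 1484 counts, or from 12.58 to 21.21 FPKM. The log2 ratio was 0.75 (0.64 to 0.87, exact binomial adjusted p = 1.30e-38). *Ltbp4* rose from 18.96 to 22.83 FPKM, with 1712 and 1576 counts and a log2 ratio of 0.27 (0.17 to 0.37). The 4 genes had a median of 2961 counts over both libraries, beside 1053 for all genes tested. Deeper counts pass this test at smaller ratios. The summed level of the family was 94.9 FPKM in the control and 125.9 FPKM in *Myl3*-KO. Its median log2 ratio was 0.55, beside 0.02 for all genes tested, and 0.30 when GC content and length were taken into account.

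GC content moved with this result. *Ltbp2*, *Ltbp3* and *Ltbp4* were in the most GC-rich of 10 equal bins of all genes tested, and the median log2 ratio of all genes went from -0.09 in the poorest bin to 0.11 in the richest. Over the 37 members, GC content and log2 ratio had a Pearson correlation of 0.31 and a Spearman correlation of 0.28, and over 12199 genes tested 0.17 and 0.24, each given as a description since genes of the same libraries are not independent. After the median of genes of like GC content and length was subtracted, an alternative chosen after seeing the data, the log2 ratio was 0.99 for *Ltbp2*, 0.43 for *Ltbp3* and 0.16 for *Ltbp1*, which all still passed. *Ltbp4* went to -0.053 and no longer passed. *Tgfb1* was at 0.63, *Bmp1* at 0.37, *Tgfb2* at -0.33 and *Grem1* at -0.40, all past the test. With this subtraction 8 members were higher and 5 lower, in place of 9 and 3, beside 13.2% of all genes higher and 15.5% lower under the same setting. The part of GC content in the unsubtracted ratios was not tested.

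**Figure D3:**
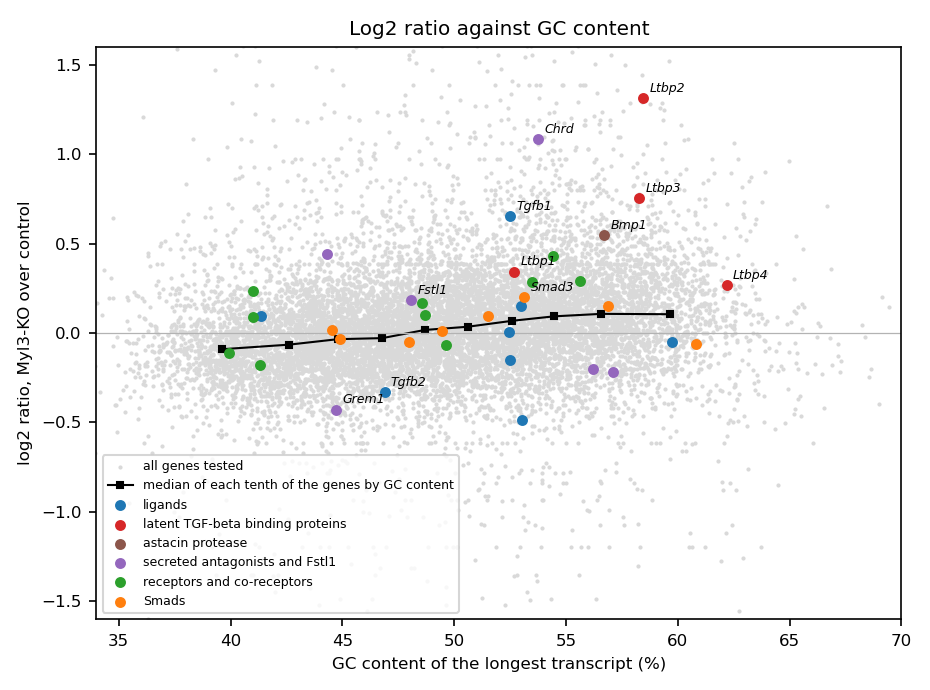
Log2 ratio (*Myl3*-KO divided by control) against the GC content of the longest transcript, for all genes tested (grey) and for the members (coloured by role). Black squares are the medians of 10 equal bins of the genes by GC content and go from -0.09 to 0.11. The most GC-rich bin holds *Ltbp2*, *Ltbp3* and *Ltbp4*, and genes beyond the axes are not drawn.

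Among the antagonists, *Grem1* was lower. It encodes gremlin 1, which binds BMP2 and BMP4, and fell from 2352 to 1338 counts, or from 32.19 to 23.93 FPKM. The log2 ratio was -0.43 (-0.53 to -0.33, exact binomial adjusted p = 7.92e-17). *Chrd*, which encodes the BMP antagonist chordin, had 8 and 13 counts and a log2 ratio of 1.09 with an interval of -0.29 to 2.56, and did not pass (exact binomial adjusted p = 0.235). *Fst*, which encodes the activin antagonist follistatin, had 24 and 25 counts, and *Nog*, which encodes noggin, 6 and 4. *Fstl3*, a follistatin-like inhibitor of activins, had an expected count of 340 in the control and of 224 in *Myl3*-KO and did not pass. *Fstl1*, a secreted glycoprotein of the follistatin family, had the highest FPKM of all members. It went from 189 to 215 FPKM, with 12620 and 10965 counts and a log2 ratio of 0.18 (0.15 to 0.22, exact binomial adjusted p = 1.47e-20). This was a small difference on the most deeply counted member.

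Of 13 receptor and co-receptor genes 10 were tested, with 1 higher and 1 lower (10% each, beside 18.6% and 16.8% of all genes). Their median log2 ratio was 0.13. *Bmpr1a*, a type I BMP receptor and the receptor with the highest FPKM, fell from 3785 to 2562 counts, or from 36.08 to 31.92 FPKM. Its log2 ratio was -0.18 (-0.25 to -0.10, exact binomial adjusted p = 1.38e-05). *Tgfbr1*, the type I receptor for TGF-β, had 714 and 642 counts and went from 7.13 to 8.61 FPKM. The log2 ratio was 0.23 (0.08 to 0.39, exact binomial adjusted p = 0.0116). The other type I receptors tested were *Acvr1* with 533 and 437 counts and the activin receptor *Acvr1b* with 244 and 228. *Bmpr1b* had 1 count in each library, *Acvr1c* 1 and 0, and *Acvrl1* 0 in both, so the BMP type I receptors with more than 1 count in a library were *Bmpr1a* and *Acvr1*.

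The 4 type II receptors did not pass the exact binomial test after adjustment, and 1 of them, *Bmpr2*, had an unadjusted p under 0.05. *Tgfbr2*, which binds TGF-β directly, had 2017 and 1473 counts, or 22.60 and 21.20 FPKM, and a log2 ratio of -0.07 (-0.17 to 0.03). *Bmpr2*, the main BMP type II receptor, had 2269 and 1850 counts. *Acvr2a* had an expected count of 380 in the control and of 269 in *Myl3*-KO, and *Acvr2b* had 66 and 68 counts. *Acvr2a* overlaps *Orc4*, as *Fstl3* does *Prss57*, *Chrd* does *Thpo* and *Acvr1* does *Gm17409*. After the subtraction for GC content and length, *Bmpr2* passed as higher with a log2 ratio of 0.16, and *Tgfbr2* with -0.16 and *Gdf11* with -0.26 passed as lower. The co-receptor *Tgfbr3*, betaglycan, had 178 and 153 counts and a log2 ratio of 0.17 (-0.15 to 0.49), and *Tgfbr3l* had 16 and 15 counts.

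All 8 Smads were tested, and 1 was higher and 0 lower, with a median log2 ratio of 0.02. *Smad5*, a BMP-branch Smad and the Smad with the highest FPKM, had 4735 and 3668 counts, or 40.97 and 41.37 FPKM. Its log2 ratio was 0.02 (-0.04 to 0.08). In the same branch *Smad1* had 710 and 581 counts and *Smad9* 439 and 325. Of the TGF-β branch, *Smad2* had 805 and 603 counts and a log2 ratio of -0.03 (-0.19 to 0.12). *Smad3* had 1283 and 1127 counts and was higher, going from 14.31 to 16.43 FPKM with a log2 ratio of 0.20 (0.08 to 0.32, exact binomial adjusted p = 0.00346). This call was lost after the subtraction for GC content and length, where the ratio was 0.09. *Smad4*, the common partner, had 1118 and 864 counts and a log2 ratio of 0.01 (-0.12 to 0.14). The inhibitory *Smad6* had 706 and 517 counts and a log2 ratio of -0.06 (-0.23 to 0.10), and *Smad7* had 305 and 259 counts. Receptors and Smads together had 3 calls in 18 genes tested, or 16.7%, beside 35.4% of all genes called in either direction. After the subtraction for GC content and length, the calls among them were *Bmpr1a*, *Bmpr2*, *Tgfbr1* and *Tgfbr2*. Under that setting 13.2% of all genes were called higher and 15.5% lower. The levels of the receptors and Smads summed to 231.3 FPKM in the control and 231.6 FPKM in *Myl3*-KO.

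**Figure D4:**
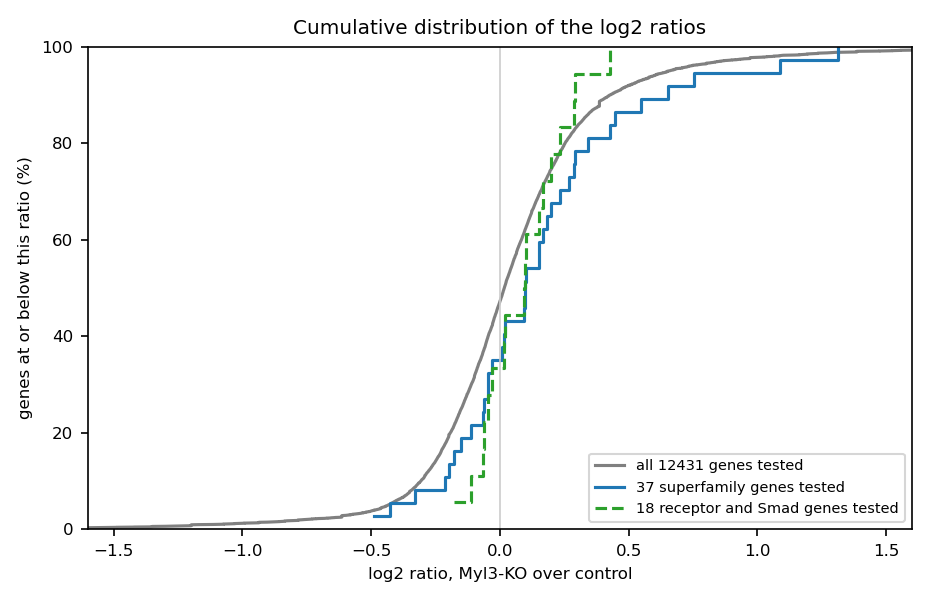
Cumulative share of genes (%) at or below each log2 ratio (*Myl3*-KO divided by control), for all 12431 genes tested (grey), the 37 members tested (blue) and the 18 receptor and Smad genes among them (green, dashed). The medians are 0.02, 0.10 and 0.09, and genes beyond the axis are not drawn.

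The rest of the pathway was examined through lists of genes outside the symbol rule. In the list for latency and activation, 6 of 10 genes were tested, 4 were higher and 0 lower (66.7% and 0%, beside 18.6% and 16.8% of all genes). *Thbs1*, which encodes the TGF-β activator thrombospondin 1, went from 494 to 542 FPKM with a log2 ratio of 0.13, which was -0.01 after the subtraction for GC content and length. *Fbn1*, which encodes fibrillin 1, the microfibril protein to which LTBPs attach, rose from 3273 to 3974 expected counts (log2 ratio 0.67, and 0.48 after the subtraction). *Furin*, the convertase of TGF-β precursors, went from 18.87 to 23.74 FPKM with a log2 ratio of 0.32, and of 0.07 after the subtraction. *Itgb8*, a subunit of a TGF-β activating integrin, rose from 24 to 35 counts, or from 0.16 to 0.31 FPKM. With these low counts its log2 ratio of 0.93 (0.14 to 1.74) passed narrowly (exact binomial adjusted p = 0.0492). The genes tested in this list had a median of 3191 counts over both libraries, beside 1053 for all genes tested, and deeper counts pass this test at smaller ratios. Among 15 other antagonists, 8 were tested, with 1 higher and 1 lower (12.5% each, beside 18.6% and 16.8% of all genes). *Chrdl1*, chordin-like 1, fell from 1371 to 723 counts (log2 ratio -0.54) and *Nbl1*, a gremlin relative, rose from 111 to 152 counts (log2 ratio 0.84). *Wfikkn2* had 4 and 8 counts, past 2-fold but not past the test. Of 9 other receptors and co-receptors 5 were tested and 1 was lower (20%, beside 16.8% of all genes). This was *Fkbp1a*, which encodes an immunophilin that binds type I receptors, with a log2 ratio of -0.09. The other ligands had 1 of 5 tested, *Amh* with 25 and 15 counts. Of 17 intracellular regulators, all tested, 5 were higher (29.4%, beside 18.6% of all genes) and 2 lower (11.8%, beside 16.8%). Their median log2 ratio was 0.00. Higher were *Smurf1*, *Ski*, *Tgif1*, *Pmepa1* and *Rnf111*, and lower were the ubiquitin ligase *Smurf2* and the deubiquitinase *Usp15*. After the subtraction *Smurf1* was at -0.008, *Ski* at 0.07, *Pmepa1* at 0.27, *Rnf111* at 0.32 and *Tgif1* at 0.37.

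Known target genes of TGF-β were mixed. Of 14 genes 13 were tested, with 6 higher (46.2%, beside 18.6% of all genes), 3 lower (23.1%, beside 16.8%) and a median log2 ratio of 0.07, which was 0.03 after the subtraction for GC content and length. Higher were *Ctgf* (log2 ratio 0.37), *Snai2* (0.47), *Pmepa1* (0.44), *Col1a2* (0.22), *Col1a1* (0.15) and *Tgfbi* (0.12). The lower genes included *Snai1* (-0.22) and *Postn* (-0.08). After the subtraction for GC content and length, *Col1a1* was at -0.17 and *Postn* at 0.02, so their signs turned, and *Col1a2* was at 0.05 and *Tgfbi* at 0.04. Those not passing were *Skil* with a log2 ratio of 0.07, *Cdkn2b* with 2768 and 2111 counts, *Acta2* with 172 and 127, and *Cdkn1a* with 22 and 12, while *Tagln* had 1 and 2 counts and was not tested.

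Of 10 BMP target genes, 2 were higher, 1 was lower, shares near or under those of all genes, and the median log2 ratio was -0.02. The inhibitors of differentiation *Id1* and *Id3*, direct BMP targets, did not pass, with 2336 and 1739 counts for *Id1* and 7656 and 5818 for *Id3*. Their log2 ratios were -0.04 and -0.01. *Id2* had a log2 ratio of -0.16 and did not pass. *Id4* fell from 105 to 39 counts, past 2-fold (log2 ratio -1.04, interval -1.61 to -0.50). The homeobox gene *Msx2* was higher at 0.39, and *Runx2*, a regulator of hypertrophy and bone, at 0.11, which was -0.03 after the subtraction. *Atoh8* had a log2 ratio of 0.09, *Sp7* 98 counts in *Myl3*-KO against 137, *Dlx5* 38 against 55 and *Msx1* 42 against 54, none of which passed.

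By the pathway annotation in the deposited table, 83 genes belonged to KEGG TGF-β signaling, 39 of them members and 44 not. Of the 25 members tested there, 4 were higher (16%) and 2 lower (8%), both under the shares of all genes (18.6% and 16.8%). The median log2 ratio of these members was 0.10. Of the 37 others tested, 8 were higher (21.6%) and 12 lower (32.4%), beside 18.6% and 16.8% of all genes. Their median was -0.08, and -0.014 after the subtraction for GC content and length. Past 2-fold among these were *Id4* and *Dcn*, which encodes decorin, a proteoglycan that binds TGF-β and one of the fibroblast markers above, and which fell with a log2 ratio of -1.64.

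The calls rest on counting error. When edgeR's exact test was run with a preset coefficient of variation of 0.1 between libraries, *Ltbp2* was the 1 member still called, and *Ltbp3* had an adjusted p of 0.0643. At 0.2 and 0.4 none were called, with 1 and 0 members at an unadjusted p under 0.05.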

How the data were processed

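RNA-seq libraries of primary chondrocytes, 1 control and 1 *Myl3*-KO, were analysed from the table the authors deposited. It holds expected counts, estimated reads per gene without normalization that the authors deposited beside FPKM values, which they scaled by gene length and library size. The column headed NC was read as the control, since the other is headed KO. The submitters' processing notes name GRCm38 and mm10. The aligner, counting tool and strand setting were not given in the sources used here. Library kits were described differently in the labels (SMARTER) and in the methods of the study, and no molecular identifiers were named, so reads are not independent molecules.

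The log2 ratio was computed from expected counts over the library totals, with a floor of 3 counts. Counts rounded to whole numbers, which touched 2 members, entered a two-sided exact binomial test (scipy 1.17.1) with Benjamini-Hochberg adjustment over genes with at least 10 counts in both libraries together. Calls used an adjusted p under 0.05. The quasi-likelihood test of edgeR was not run, because a single library for each genotype leaves no residual degrees of freedom. edgeR 4.0.16 and DESeq2 1.42.0 gave alternative scaling factors, and edgeR's exact test was run with preset coefficients of variation. The statistics were tested on simulated counts drawn with counting error alone. The simulation therefore cannot show how the calls behave with variation between libraries. GC content and length came from GENCODE M21 on GRCm38, and 10 by 5 bins of them were used for an alternative added after seeing the data.

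The members, the pathway and marker lists and the tests were chosen with earlier results of these data known. Every member may be named. Ratios with intervals are given for members with an adjusted p under 0.05 and a log2 ratio of at least 0.5 in size, for those past 2-fold and for the member of highest FPKM of each role. Listed genes were named if past 2-fold, if among the 2 of highest FPKM of their list, or if target genes. Ratios of *Ltbp4*, *Tgfb3*, *Tgfbr1* and *Smad3*, of *Bmpr2* after the subtraction and the other genes named were chosen after their values were seen. Some items are not reported here.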

Additional observations from a re-analysis of the deposited data

How the results depend on the processing

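With TMM scaling, DESeq2 size factors, at least 10 counts in each library or no filter, 9 members stayed higher and 3 lower. The filters changed which genes were tested and the adjustment, but not the unadjusted p of a gene. Adding 1 count to each library changed the ratios and not the test, so its calls were the same by design. The median log2 ratio was 0.08 with TMM and with DESeq2, 0.09 from FPKM and 0.06 after subtracting GC content and length bins. Without a filter it was 0.34, beside 0.35 for all genes, since genes at the floor in both libraries have a ratio set by the library totals. Subtracting GC content and length bins left 8 higher and 5 lower and 0 past 2-fold higher. There *Ltbp4* turned to -0.053, *Smad3* lost its call, and *Bmpr2*, *Gdf11* and *Tgfbr2* gained one. Requiring 10 counts in each library left 1 past 2-fold higher, since *Chrd* was not tested. A log2 limit of 0.5 gave 5 higher and a limit of 2 gave 0. By edgeR's exact test 1 member was higher and 0 lower at a coefficient of variation of 0.1, and 0 and 0 at 0.2 and at 0.4, with 41 genes higher and 20 lower over the whole table at 0.1. Of 219 single-member tests outside edgeR, 214 gave the same call, and the exceptions were the members with GC subtraction named above. The 219 include 37 tests with 1 count added, whose calls could not differ. Depth limits the 24 members with at most 4 counts, for which no difference was detectable. Leaving out a library was not possible with 1 per genotype.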
